A study of Mus musculus with 6 samples.

Results

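The 40 genes described here encode proteins that detect damaged DNA, pass the signal on through kinases and p53, and repair the lesion. They were taken from a fixed list of names, chosen with earlier results of these data known. All 40 were found among the 25006 gene identifiers counted in each library. RNA was sequenced from the ventricles of hearts taken from mouse embryos at day 17.5 of gestation, NMRI strain background, in 3 control libraries and 3 libraries labelled as null for Prox1, the transcription factor that sets lymphatic endothelial identity. Controls carry the genotype label WT, although the mating described below, with both parents Prox1 f/f, would give floxed Prox1 in every embryo. Whether the controls carried floxed Prox1 is not stated. The null-labelled embryos carry VecadcreERT2; Prox1f/f, that is, floxed Prox1 alleles and a tamoxifen-inducible Cre recombinase driven by the VE-cadherin promoter, which is active in endothelial cells. Per the protocols, Prox1 f/f females were mated with VecadCreERT2; Prox1f/f males, and the pregnant females were given 5 mg tamoxifen per 40 g of body weight at E13.5 and E14.5. Both groups share this protocol text, so controls are also described as exposed to tamoxifen, and Cre is named only for the null-labelled group. Cre and the targeted deletion of Prox1 thus go together in these labels, and their effects cannot be told apart.

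Each kind of DNA lesion has its own route of repair. Nucleotide excision cuts out bulky adducts, homologous recombination and end joining mend double-strand breaks, mismatch repair corrects replication errors, and the Fanconi anaemia proteins clear crosslinks between the strands. The kinases Atm, Atr, Chek1 and Chek2 slow the cell cycle while repair proceeds, and recombination, Fanconi and mismatch genes are known to be transcribed more in dividing cells, which the fetal ventricle still contains.

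Libraries held 35195544 to 44330594 counts, and 14815 genes were abundant enough to be tested. Nothing in the labels states that each library is a different embryo, so the p-values speak only of the spread among these libraries, which may be partly technical. The targeted gene Prox1 had 147 ± 3.16 CPM in controls and 164 ± 3.91 CPM in the null-labelled group (CPM, counts scaled to library size and composition; SD, n = 3 per group). It was called higher in the null-labelled group, against the label, with every null-labelled library above every control (log2 fold change 0.15, adjusted p = 0.0331). These are counts per gene from whole ventricle, so they do not show whether the floxed part of Prox1 was lost in endothelial cells. Of the other 4 lymphatic endothelial markers, Reln fell (-0.72, adjusted p = 0.000654) and the rest did not pass. Esr1, whose ligand-binding part is fused to inducible Cre, had 9 to 19 counts in controls and 244 to 298 in null-labelled libraries. Null 1 and null 3 carried both Y-linked counts (9218 and 9952) and Xist (1798 and 5738), unlike the other libraries, which had one or the other almost alone. By the larger count, control 3 and null 2 were called female and the other libraries male. Fits without control 3 therefore held only controls called male. Among markers of other tissues, the liver gene Alb reached 322 counts in control 3, against 3 to 125 elsewhere, and the lung gene Sftpc reached 140 in null 2, against 0 to 10 elsewhere. Summed over 8 markers, cardiomyocyte genes stood at 71610 to 77270 CPM in controls and 73570 to 75190 in null-labelled libraries, and thymus and T cell markers stayed at or below 0.962 CPM in every library. Endothelial markers summed to 1266 to 1418 CPM in controls and 1141 to 1235 in null-labelled libraries, fibroblast markers to 4568 to 5294 and 5529 to 6111, and macrophage markers to 72.1 to 83.1 and 93.2 to 115.8. Erythroid markers summed to 1738 to 5059 CPM in controls, highest in control 3, and 1202 to 1963 in null-labelled libraries (exact permutation p = 0.3), and interferon-induced genes to 50.3 to 65.7 and 134.5 to 216.6. Of 14 marker lists compared, the endothelial, fibroblast, macrophage, interferon, lung and p53 target sums gave an exact two-sided permutation p of 0.1, the smallest that 3 libraries against 3 allow (0.233 adjusted over the lists). Their part in the repair genes' values was not tested. In whole tissue, fewer cells of a type and less RNA per cell cannot be told apart.

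No repair gene passed the test between groups, and the measured differences were small. With edgeR's quasi-likelihood test, adjusted over all genes, 0 of 40 members were called higher and 0 lower at an adjusted p under 0.05, where 5.41% of all tested genes were called (2.43% higher and 2.98% lower). DESeq2 and limma-voom likewise called 0. At an unadjusted p under 0.05 there were 11 members (27.5%), 5 above and 6 below the control level, beside 20.5% of all genes (9.55% above and 10.9% below). The groups did not overlap for 12 members (30.0%), 5 higher and 7 lower in null-labelled libraries, beside 26.6% of all genes (12.7% higher and 13.9% lower). The members' median log2 fold change (null-labelled over control) was -0.04 against -0.004 over all genes tested, and their median size irrespective of sign was 0.089 against 0.0895. Single values ran from -0.26 for Fanca to 0.26 for Polk.

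Members had 217 to 8240 counts per library, and the median coefficient of variation between libraries was 4.63% in controls and 4.66% in the null-labelled group. The 95% interval of every one of the 40 differences lay within 1.5-fold in either direction, with 1.45-fold as its farthest bound (Fanca), and 31 of the 40 lay within 1.25-fold. Before adjustment for the number of genes, intervals of 11 members left out 0. They are the same 11 members that had an unadjusted p under 0.05, beside 20.5% of all genes. These intervals cover each gene on its own and rest on 3 libraries per group.

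**Figure D1:**
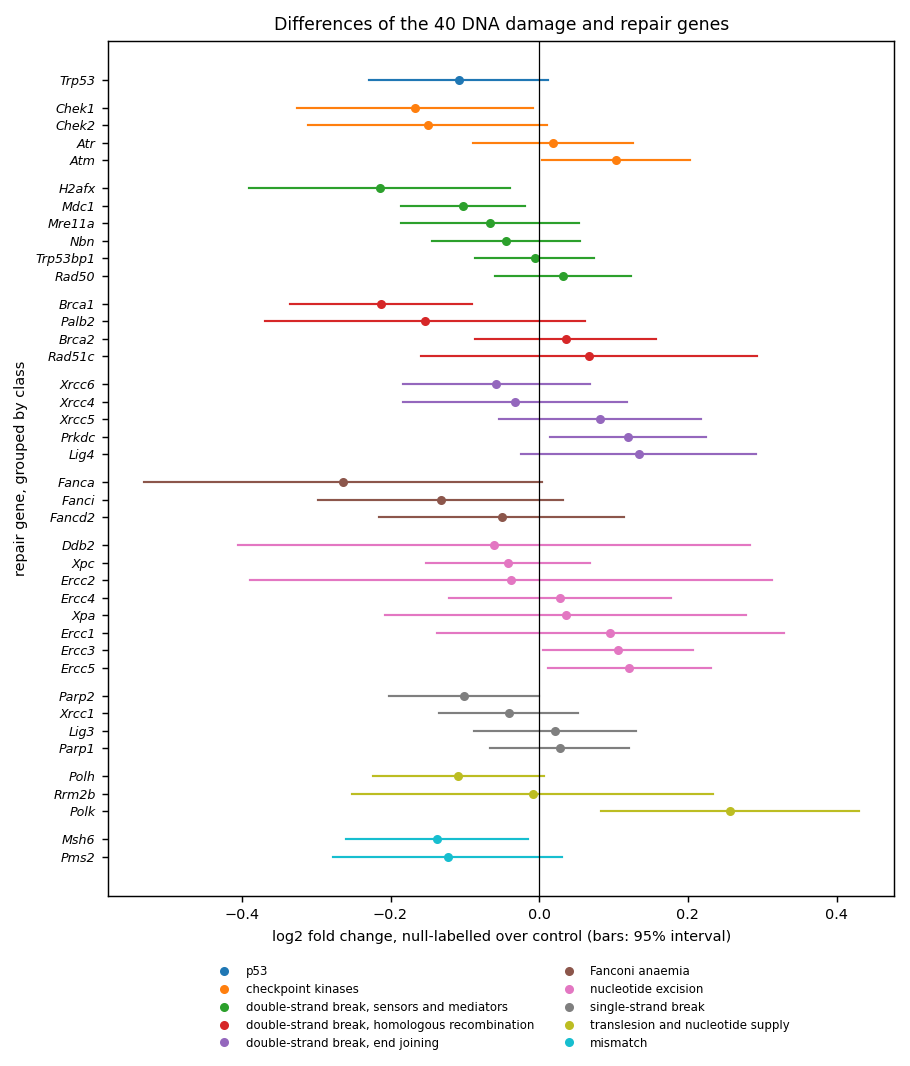
Log2 fold change of each repair gene, null-labelled over control, with its 95% interval from the edgeR fit (horizontal axis); genes are grouped and coloured by repair class. All intervals lie between -0.53 and 0.43, and those of Fanca, Ddb2 and Ercc2 are among the widest.

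Levels differed far more between genes than between groups. Scaled per kilobase of annotated exon, control levels ran from 38.8 ± 2.26 CPM per kb for H2afx, the histone variant phosphorylated around breaks, and 35.8 ± 1.73 for Parp1, the sensor of strand breaks, down to 1.04 ± 0.0589 for Palb2, which joins the BRCA1 and BRCA2 proteins. H2afx and Parp1 overlapped between control libraries. Mdc1 (19.3 ± 0.25 CPM per kb), Nbn (15.9 ± 0.249), Trp53 (14.8 ± 1.02), Msh6 (12.3 ± 0.333) and Ercc3 (11.4 ± 0.173) followed, each separated from its neighbours in the order. Further down, neighbours mostly did not differ beyond their spread: over the whole order, control libraries overlapped in 25 of 39 neighbouring pairs. Of the checkpoint kinases, Chek1 (5.05 CPM per kb), Chek2 (3.91) and Atm (3.49) stood at ranks 20, 24 and 25 of 40 in controls, and Atr (2.35) at rank 37. Exon length was summed over all annotated transcripts, 23629 bases for Atr, and which of them the tissue uses was not measured.

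**Figure D2:**
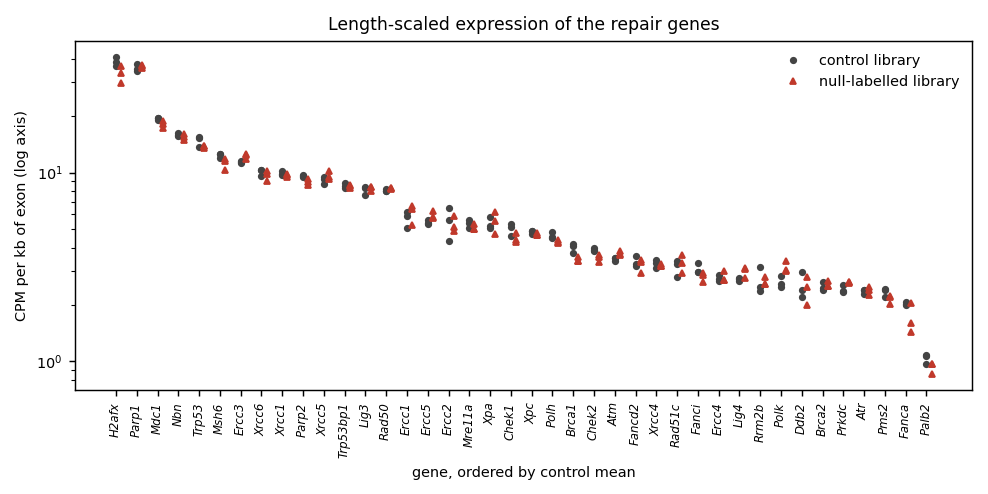
CPM per kilobase of exon (log axis) of the 40 repair genes in each control library (grey circles) and each null-labelled library (red triangles), ordered by the control mean. The order runs from H2afx at 38.8 to Palb2 at 1.04 in controls, and the libraries of both groups lie close together for most genes.

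The members nearest to a call in each direction were Brca1 and Polk, and their promoters are shown for that reason. They come from RefSeq (GRCm38.p6), read 5′ to 3′ on the gene's strand, and end at the base before the transcription start; capitals mark a CCAAT box or a p53 decamer (the 10-letter unit of the p53 response element).
Brca1, chr11:101551956-101552205, minus strand: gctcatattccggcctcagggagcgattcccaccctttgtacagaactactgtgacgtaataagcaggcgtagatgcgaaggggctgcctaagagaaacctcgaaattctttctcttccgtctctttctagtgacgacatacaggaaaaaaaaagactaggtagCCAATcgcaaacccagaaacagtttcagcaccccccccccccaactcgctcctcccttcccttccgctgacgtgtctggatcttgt
Polk, chr13:96542580-96542829, minus strand: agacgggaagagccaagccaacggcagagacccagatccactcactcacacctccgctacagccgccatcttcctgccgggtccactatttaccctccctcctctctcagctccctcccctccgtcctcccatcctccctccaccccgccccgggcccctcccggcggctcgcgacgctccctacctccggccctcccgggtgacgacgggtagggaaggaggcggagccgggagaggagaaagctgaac
Polk, second listed start, chr13:96519188-96519437, minus strand: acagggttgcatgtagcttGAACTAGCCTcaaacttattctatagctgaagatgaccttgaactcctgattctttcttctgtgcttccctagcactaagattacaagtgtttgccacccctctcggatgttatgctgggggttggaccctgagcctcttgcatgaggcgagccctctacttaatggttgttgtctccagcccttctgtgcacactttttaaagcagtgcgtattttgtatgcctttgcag
The CCAAT box of Brca1 begins 86 bases before its start, and the decamer of Polk lies 231 bases before the second start. That window lies inside the Polk gene. The decamer pattern is its own reverse complement, so any match reads on both strands.

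Promoter windows of 250 bases were matched for 31 of the 40 members. On both strands, 15 of the 31 (48.4%) held CCAAT, beside 37.5% of all genes with a window. The E2F motif, searched as TTTGGCGC or TTTCGCGC, was in 0 of 31 member promoters and 0.759% of all promoters, and the cell cycle element TTTGAA was in 1 (3.23%), that of Ercc5, against 18.3%. A p53 decamer was in 3 promoters (9.68%), those of Trp53, Fanca and Polk, against 8.2% of all, and a pair of decamers at most 13 bases apart was in 0 members and 0.0666% of all. These are letter matches in short windows, taken only before the start. Member windows had a median GC content of 57.4%, against 52.4% over all windows. The part of base composition in these shares was not tested. In the printed sequences the only matches that overlap are the readings of the Polk decamer on each strand, as the pattern requires.

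p53 (Trp53, chromosome 11, 69580359 to 69591873, GRCm38), the transcription factor on which the damage signal converges, had 62.8, 61.4 and 55.0 CPM in controls 1 to 3 and 56.0, 56.0 and 54.3 CPM in null-labelled libraries. Control 3 lay among the null-labelled libraries, and the groups overlapped. The log2 fold change was -0.11 ± 0.05 (SE), with an adjusted p of 0.293. Without control 3 the log2 fold change was -0.16, and the adjusted p of 0.0498 then passed. With a term for sex and all libraries, Trp53 did not pass. Control 3 was the only control called female, and also the library with the most Alb counts and the highest erythroid sum. The part of these traits was not tested.

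**Figure D3:**
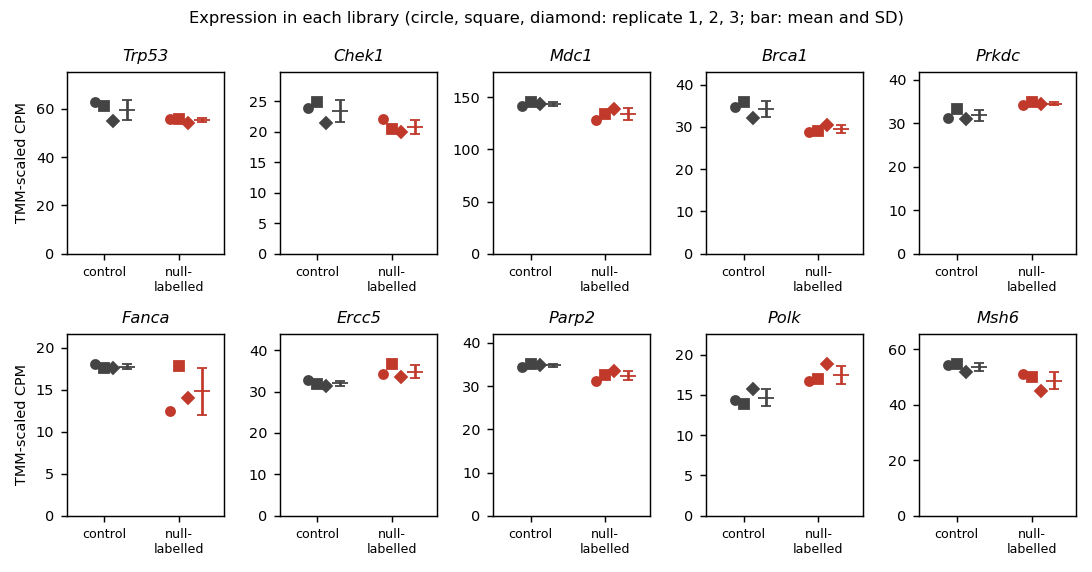
TMM-scaled CPM in each library for Trp53 and for the gene of smallest p in each repair class; circles, squares and diamonds are replicates 1, 2 and 3, and bars give the mean and SD of each group. Brca1 and Polk show groups that do not overlap, and Fanca shows null 2 at 17.8 CPM among the controls.

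Of the 4 checkpoint kinases, Chek1, which halts the cycle when replication stalls, had the smallest p. It stood at 23.9, 24.8 and 21.5 CPM in controls and 22.1, 20.5 and 20.0 CPM in null-labelled libraries, so null 1 lay above control 3. Its log2 fold change was -0.17 ± 0.07 (adjusted p = 0.222). Chek2, activated downstream of Atm, had 11.7 ± 0.238 and 10.6 ± 0.469 CPM without overlap (adjusted p = 0.276). The values of the apical kinases lay above 0, though that of Atr changed sign in 2 of 15 alternatives. Atm, which answers double-strand breaks, had 36.0 ± 0.874 against 38.7 ± 1.02 CPM, also without overlap (log2 fold change 0.10, adjusted p = 0.229), and Atr, which answers single-stranded DNA, had 55.6 ± 1.49 against 56.3 ± 2.74 CPM (0.02, adjusted p = 0.879).

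Sensors and mediators of double-strand breaks gave 0 calls among 6 genes, and 5 of the 6 lay below 0. Mdc1, the scaffold that binds phosphorylated H2AX, had 141.4, 145.1 and 143.7 CPM in controls and 127.7, 133.9 and 139.0 CPM in null-labelled libraries. All null-labelled libraries were below all controls, with a log2 fold change of -0.10 ± 0.04 (adjusted p = 0.152). H2afx had 50.7 to 56.9 CPM in controls and 41.1 to 50.8 CPM in null-labelled libraries, overlapping narrowly at null 2 (log2 fold change -0.21 ± 0.08, adjusted p = 0.157). Values of the complex that holds broken ends together were 0.03 for Rad50, -0.07 for Mre11a and -0.04 for Nbn on the log2 scale. Trp53bp1, which steers breaks towards end joining, was at 120.5 ± 3.88 and 120.0 ± 1.92 CPM, a log2 fold change of -0.01 with a 95% interval of -0.09 to 0.07.

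In homologous recombination, Brca1 came closest to a call of all 40 members. This tumour suppressor prepares broken ends for strand exchange, and lies on chromosome 11 at 101488764 to 101551955. Controls had 34.7, 35.8 and 32.0 CPM and null-labelled libraries 28.9, 29.0 and 30.6 CPM. Every null-labelled library was below every control, with a log2 fold change of -0.21 ± 0.05, a 95% interval of -0.34 to -0.09 and an adjusted p of 0.0548. It passed in 2 of 15 alternatives, with no filter on low counts (adjusted p = 0.0463) and without control 3 (adjusted p = 0.0249); over all of them the adjusted p ran from 0.0249 to 0.422. Its partners lay on both sides of 0. Palb2 stood at -0.15 on the log2 scale (adjusted p = 0.412), Brca2, which loads the strand exchange protein, 0.04 (adjusted p = 0.775) and Rad51c, a paralog of that protein, 0.07 (adjusted p = 0.77).

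End joining, which ligates broken ends without a template, also gave 0 calls among 5 genes and had the highest class median, 0.08. Prkdc, the catalytic subunit of DNA-dependent protein kinase, had 31.2, 33.3 and 30.9 CPM in controls and 34.3, 34.9 and 34.6 CPM in null-labelled libraries. The null-labelled libraries were all above the controls, by a log2 fold change of 0.12 ± 0.05 (adjusted p = 0.184). Lig4, the ligase of this route, had 14.2 ± 0.294 against 15.6 ± 1.03 CPM (0.13, adjusted p = 0.326), and its partner Xrcc4 had a log2 fold change of -0.03. The Ku subunits that bind the ends differed in sign, at 0.08 for Xrcc5 and -0.06 for Xrcc6, with adjusted p of 0.504 and 0.626.

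The 3 Fanconi anaemia genes all lay below 0 without a call. Fanca, a subunit of the core ubiquitin ligase, had 18.02, 17.6 and 17.5 CPM in controls and 12.5, 17.8 and 14.0 CPM in null-labelled libraries. Null 1 and null 3 were below the controls and null 2 lay among them, which made the null-labelled coefficient of variation 18.6% against 1.51% in controls. The log2 fold change was -0.26 ± 0.12 (adjusted p = 0.25); without null 2 it was -0.42 and passed (adjusted p = 0.0443), and with null 1 and null 3 both left out it was 0.01. Null 1 and null 3 are the libraries that carry both Y-linked counts and Xist. Null 2 is the one with lung transcripts and the only null-labelled library called female. Of the pair of proteins that the ligase modifies, Fanci had 17.8 ± 1.15 against 16.2 ± 0.941 CPM without overlap (-0.13, adjusted p = 0.348), and Fancd2 stood at -0.05 (adjusted p = 0.76).

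Nucleotide excision genes centred near 0, with a median of 0.03, 5 of 8 above 0 and 0 calls. Ercc5, the nuclease that cuts 3′ of the lesion, had 32.7, 31.9 and 31.4 CPM in controls and 34.3, 36.6 and 33.6 CPM in null-labelled libraries. The groups did not overlap, and the log2 fold change was 0.12 ± 0.05 (adjusted p = 0.196). Ercc3, a helicase of the transcription factor TFIIH, had 32.3 ± 0.489 against 34.7 ± 1.07 CPM, also without overlap (0.11, adjusted p = 0.221). Its fellow helicase Ercc2 varied most between controls (18.1 to 26.9 CPM) and had a log2 fold change of -0.04. For the nuclease pair Ercc1 and Ercc4 the values were 0.10 and 0.03, and for the scaffold Xpa 0.04, with adjusted p of 0.667, 0.866 and 0.898. The damage recognition genes Xpc and Ddb2 stood at -0.04 and -0.06, with 95% intervals of -0.15 to 0.07 and -0.41 to 0.28.

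Single-strand break repair showed the smallest differences of the classes with several genes, with a median size of 0.034. Parp2, a sensor that marks breaks with poly(ADP-ribose), had 34.3, 35.1 and 34.95 CPM in controls and 31.3, 32.5 and 33.5 CPM in null-labelled libraries. It was lower in every null-labelled library, by a log2 fold change of -0.10 ± 0.05 (adjusted p = 0.244). Parp1 had 189.5 ± 9.15 against 193.1 ± 3.13 CPM (0.03), the scaffold Xrcc1 -0.04 and its ligase partner Lig3 0.02, with adjusted p from 0.645 to 0.854.

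Translesion synthesis and nucleotide supply held the member furthest above 0. Polk, a polymerase that copies past damaged bases, lies on chromosome 13 at 96480690 to 96542579. Controls had 14.3, 13.8 and 15.8 CPM and null-labelled libraries 16.7, 16.95 and 18.8 CPM. The groups did not overlap, and the log2 fold change was 0.26 ± 0.08, with a 95% interval of 0.08 to 0.43 and an adjusted p of 0.0903. Without control 3 it was 0.31 and passed (adjusted p = 0.0492), the single alternative of 15 in which it did, and the adjusted p over all 15 ran up to 0.62. Polh, a polymerase for ultraviolet lesions, lay on the other side of 0 (27.6 ± 1.01 against 25.6 ± 0.418 CPM, -0.11, adjusted p = 0.269). Rrm2b, the p53-dependent subunit of ribonucleotide reductase, had 22.6, 21.5 and 28.8 CPM in controls and 23.5, 25.5 and 23.4 CPM in null-labelled libraries, with control 3 highest. Its log2 fold change of -0.01 became 0.13 without control 3.

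Both mismatch repair genes lay below 0. Msh6, which recognises single mispaired bases, had 54.2, 54.7 and 52.0 CPM in controls and 51.1, 50.2 and 45.1 CPM in null-labelled libraries. Null 3 was the lowest, the groups did not overlap, and the log2 fold change was -0.14 ± 0.05 (adjusted p = 0.191). Pms2, the endonuclease subunit, had 18.9 ± 1.04 against 17.4 ± 0.885 CPM (-0.12, adjusted p = 0.355).

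Compared by class, medians of the log2 fold change were -0.07 for checkpoint kinases, -0.03 over the 15 double-strand break genes, 0.03 for nucleotide excision and -0.13 for mismatch repair. Within double-strand break repair they were -0.06 for sensors, -0.06 for recombination and 0.08 for end joining. The medians of checkpoint kinases, recombination, mismatch and sensors stayed below 0, and those of nucleotide excision and end joining above 0, in all 15 alternatives, scalings included. That of the Fanconi genes, -0.13, became 0.0018 with null 1 and null 3 both left out. No test of a class or of a difference between classes was made, and these medians are a description of the listed members only. The alternatives reuse the same libraries, so a constant sign is not separate evidence.

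**Figure D4:**
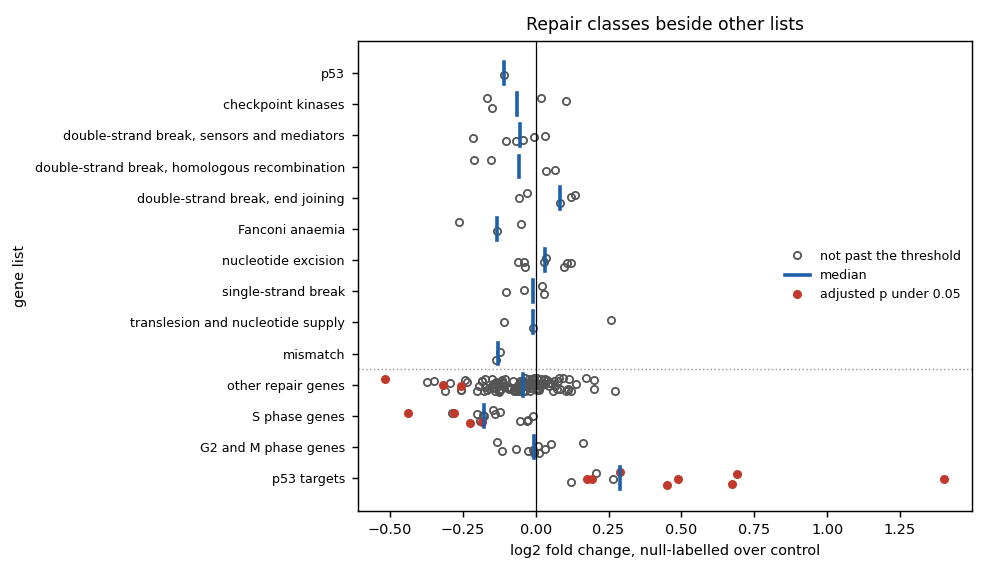
Log2 fold change, null-labelled over control, of each gene in the 10 repair classes (above the dotted line) and in 4 other lists (below it); filled red points passed an adjusted p of 0.05 and blue bars are medians. No repair class holds a red point, S phase genes lie below 0 and p53 targets above 0.

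The rest of the repair pathways was read from a list of 119 other genes, of which all 119 were tested. In this list 3 fell (2.52%, beside 2.98% of all genes) and 0 rose. Timeless, which protects stalled replication forks, had 39.8, 42.1 and 36.8 CPM in controls and 33.8, 32.8 and 32.6 CPM in null-labelled libraries (log2 fold change -0.26 ± 0.06, adjusted p = 0.0289). Rad54b, a motor protein of recombination, had 9.32, 10.9 and 8.77 CPM against 6.02, 7.10 and 7.17 CPM (-0.52 ± 0.11, adjusted p = 0.0304). Dna2, a nuclease that trims broken ends and replication flaps, had 27.9, 27.6 and 23.8 CPM against 20.1, 22.2 and 21.3 CPM (-0.32 ± 0.07, adjusted p = 0.0371). For all 3 genes every null-labelled library was below every control. Their calls were each lost without control 2 or any null-labelled library, and those of Timeless and Dna2 also without control 1. Dna2 was lost too with a term for sex or for replicate number. The list's median was -0.04, with 83 genes below 0 and 36 above, where 7589 of the 14815 tested genes lay below 0. By pathway, its medians were -0.06 for 7 end joining genes and 0.08 for 5 mismatch genes, opposite in sign to the members' medians. That of 17 nucleotide excision genes was -0.002, also opposite in sign. Medians of recombination (-0.06), Fanconi (-0.05) and checkpoint and break signalling genes (-0.05) lay below 0, as in the members.

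Markers of dividing cells give the setting of these values. Of 16 S phase genes 4 fell (25%, beside 2.98% of all genes), Cdc6 (-0.44), Pole (-0.28), Pold1 (-0.23) and Mcm6 (-0.19), and all 16 lay below 0, with a median of -0.18. Their summed level was 1357, 1415 and 1231 CPM in controls and 1209, 1214 and 1239 CPM in null-labelled libraries, with control 3 among the latter (exact permutation p = 0.2). The number that fell was 10 without control 3, 1 without control 1, control 2, null 1 or null 3, and 0 without null 2 or without both null 1 and null 3. Of 12 G2 and M phase genes 0 passed in edgeR, DESeq2 or limma-voom and 3 had an unadjusted p under 0.05. They summed to 1685 to 1797 CPM in controls, with 1628 to 1816 CPM in the null-labelled group. The part of cell division in the values of Brca1, Chek1, Msh6 and the Fanconi genes was not tested.

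Of 11 p53 target genes outside repair, 8 rose (72.7%, beside 2.43% of all genes), with Cdkn1a, the gene of the cycle inhibitor p21, at a log2 fold change of 0.67 (adjusted p = 0.0116), Eda2r at 1.40, Zmat3 at 0.45, Bax at 0.29 and Mdm2 at 0.18. Trp53inp1, Sesn2 and Ccng1 completed the 8. Phlda3 (0.21, adjusted p = 0.114), Bbc3 (0.26, adjusted p = 0.194) and Aen (0.12, adjusted p = 0.329) did not pass. The list was chosen with results of these samples known and is not independent evidence of its direction. Ddb2, Xpc, Rrm2b and Polk are named as examples of repair genes described as p53 targets, not as a full list. Of these examples 0 passed, with log2 fold changes of -0.06, -0.04, -0.01 and 0.26. The number of p53 targets that rose was 7 or 8 without any 1 control and 5 without any 1 null-labelled library. With DESeq2, limma-voom or a term for sex it was 8. With null 1 and null 3 both left out, the median log2 fold change of the 11 targets was 0.27, against 0.29 with all libraries.

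Reads of overlapping genes may be mixed into some of these values, since the strand setting of the counting is not given. Exons of 20 members overlap no other annotated gene, and 7 overlap by more than 10% of their exon bases. The largest overlap was that of Ercc2 with Klc3 and others (42.7%), followed by Lig3 with Rffl (25.1%) and Ddb2 with Acp2 (23.8%). Klc3 had 0.594 CPM in controls. Acp2 had a log2 fold change of 0.15, opposite in sign to Ddb2, and Zfp276, which overlaps Fanca by 10.5%, had -0.18 (adjusted p = 0.186).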

How the data were processed

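Whole-number counts per Ensembl gene were deposited by the authors, 1 file per library, with no normalisation. The submitters' processing notes name build mm10 and the tools STAR, HTSeq 0.6.1p1, cutadapt 1.13 and DESeq2; role, annotation and strand setting are not given in the sources used. Of 25006 identifiers, 24991 were matched to GENCODE M21 (GRCm38), and 15 were not, with at most 0.00212% of a library's counts.

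Genes were filtered with filterByExpr, scaled by TMM and tested in R 4.3.3 with edgeR 4.0.16 (quasi-likelihood F test, robust, group as the only term, two-sided, Benjamini-Hochberg over 14815 genes); a call is an adjusted p under 0.05. Every adjusted p comes from this test unless another tool is named. Standard errors come from the fold change and F, and 95% intervals use the t distribution with the fit's degrees of freedom. The test was tried on simulated counts, where most differences of 1.2-fold were not recovered. In each library 3 counts equal 0.0677 to 0.0852 CPM; intervals cover no error beyond these libraries. Summed marker levels were compared by exact permutation.

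The members and lists were chosen with earlier results of these data known. Values per library are given for Trp53 and the gene of smallest p in each class; other repair genes and p53 targets are named where called, and further members by their role. Rrm2b per library and the printed promoters were chosen after their values were seen. Alternatives were other scalings and filters, DESeq2 1.42.0, limma-voom (limma 3.58.1), terms for replicate number or sex (called from Y-linked genes and Xist), and libraries left out.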

Additional observations from a re-analysis of the deposited data

How the results depend on the processing

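Over 15 alternatives, 36 of the 40 repair genes passed in none, and Trp53, Brca1, Fanca and Polk passed in 1 or 2, as given beside each. The number of members called was 1 lower with no filter on low counts; leaving out 1 library at a time it ran from 0 to 1 higher and from 0 to 2 lower. The sign held in every alternative for 27 members and changed in at least 1 for 13, among them Fanca; the other 12 were called in no alternative. Of the other repair genes, 5 fell with DESeq2, 5 with no filter, 0 with null 1 and null 3 both left out, and 0 to 5 when 1 library was left out. Over all genes, leaving out 1 library gave 127 to 448 higher and 126 to 494 lower, against 360 and 441 with all libraries, and 21 and 31 with null 1 and null 3 both left out. A replicate block called 268 higher and 302 lower genes, 0 members, 3 other repair genes, of which Dna2 was not one, 1 S phase gene in place of 4 and 7 p53 targets in place of 8. Whether the replicate numbers pair the libraries is not stated. Deviations from group means correlated across genes at -0.0643, -0.0467 and -0.121 for same-numbered libraries, and at -0.029 to 0.0857 for the others. Such deviations sum to 0 within each group of 3, so these correlations cannot decide whether libraries are paired. The cause of the shifts between alternatives was not tested. Members had at least 217 counts in every library and standard errors of 0.04 to 0.15 on the log2 scale; the part of depth in these errors was not tested.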
